A study of Mus musculus with 8 samples.

Results

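The genes described here encode the proteins of the mitochondrial ribosome in NMuMG cells, a line of normal mouse mammary gland epithelial cells. They were chosen by symbol alone, as every gene of the count table whose symbol is Mrpl or Mrps followed by a digit, with pseudogene symbols left out. This gave 77 of 21240 genes: 48 with a large subunit symbol (Mrpl) and 29 with a small subunit symbol (Mrps). All 77 passed the filter on low counts, which kept 11835 genes for testing. The cells were wild type and were kept in medium with serum and insulin, and they were treated with BRM014 for 6 h, with the vehicle DMSO for 6 h, with BRM014 for 30 h or with DMSO for 30 h. BRM014 inhibits the ATPase activity of SMARCA4 and SMARCA2, the catalytic subunits of the SWI/SNF chromatin remodelling complexes, and no dose of it was stated in the sources used here. Each group had 2 libraries of stranded total RNA. The labels call them biological replicates without saying that they came from separate cultures, so p-values measure only the spread between these libraries.

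Mitochondria keep their own ribosome, which translates the few messenger RNAs of mitochondrial DNA, all of them for subunits of the respiratory chain and the ATP synthase. Its ribosomal RNAs come from mitochondrial DNA, whereas all of its proteins are made from nuclear genes, translated in the cytosol and imported. Part of these proteins descend from the bacterial ribosome and the others are specific to mitochondria. Some symbols do not match the protein's place: in human structures the products of MRPS18A and MRPS30 sit in the large subunit, and the human product of MRPS36 is now known as a component of the 2-oxoglutarate dehydrogenase complex. The large and small groups below follow the symbols unless stated otherwise.

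Promoters of nuclear genes for mitochondrial proteins are known for binding sites of nuclear respiratory factor 1 (NRF1), of the ETS factor GABP and of YY1. RefSeq promoter windows on GRCm38.p6, 250 bases before to 50 bases after the listed start, were matched for 68 of the 77 genes and searched on both strands. The ETS motif CCGGAAG was in 24 of the 68 (35.3%), against 19.3% of 9420 windows of tested genes and 9.12% of all 27025 windows. The NRF1 motif, GCGCA and GCGC with any 1 base between them, was in 13 (19.1%), against 11.2% of tested genes and 4.78% of all windows, and the YY1 motif AAGATGG was also in 13 (19.1%), against 7.54% and 6.48%. At least 1 of these 3 motifs was in 41 of 68 (60.3%), against 33.4% of tested genes and 18.4% of all windows. The E-box CACGTG was in 5 (7.35%), against 10.4% and 7.24%. By subunit, the ETS motif was in 13 of 42 large (31.0%) and 11 of 26 small subunit windows (42.3%), and the NRF1 motif in 10 of 42 (23.8%) and 3 of 26 (11.5%).

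The 120 bases before the start are shown for 3 of the genes called below. These are Mrpl45, which was higher with BRM014 at both times, Mrps22, which was lower at 30 h, and Mrps14, which was higher at 6 h. The calls of Mrps22 and Mrps14 were lost under some alternatives. Capitals mark NRF1 motif matches in Mrpl45 and the ETS motif match in Mrps22. Mrps14 has none of the 4 motifs in these bases. They lie at chr11:97315596-97315715 (plus strand), chr9:98601680-98601799 (minus strand) and chr1:160195095-160195214 (plus strand) of GRCm38.p6, per RefSeq, and a match is a description of letters only.
Mrpl45: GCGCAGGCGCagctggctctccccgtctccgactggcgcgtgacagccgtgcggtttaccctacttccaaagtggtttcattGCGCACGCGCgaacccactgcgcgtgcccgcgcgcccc
Mrps22: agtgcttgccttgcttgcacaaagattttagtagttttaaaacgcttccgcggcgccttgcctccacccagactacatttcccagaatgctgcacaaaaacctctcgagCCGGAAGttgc
Mrps14: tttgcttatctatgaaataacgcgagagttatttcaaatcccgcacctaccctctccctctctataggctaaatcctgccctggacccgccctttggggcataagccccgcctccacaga

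The libraries held 17859693 to 29955366 counts, and log2 CPM of the 2 libraries of a group had r = 0.990 to 0.994 over tested genes and 0.991 to 0.996 over the 77 genes (across genes, which are not independent replicates). The epithelial genes Cdh1, Krt8, Krt18 and Krt19 were expressed, whereas Epcam, Cldn3 and Cldn7 were at 0 in every library, and 6 of 10 epithelial markers were under 1 CPM in every library. CPM, the unit of level used below, are counts scaled to the size of the library, its total multiplied by a TMM factor. The 10 epithelial markers summed to 5539 to 6129 CPM (BRM014 6 h), 5962 to 6316 CPM (DMSO 6 h), 7432 to 8666 CPM (BRM014 30 h) and 5552 to 5716 CPM (DMSO 30 h). Krt19 went the other way at 30 h, with 652 and 663 CPM with BRM014, against 1202 and 1196 CPM with DMSO. The summed level of 7 fibroblast markers was 0.718 to 0.767 CPM (BRM014 6 h), 1.118 to 1.611 CPM (DMSO 6 h), 1.124 to 1.336 CPM (BRM014 30 h) and 2.19 to 2.77 CPM (DMSO 30 h). That of 7 immune markers was 3.85 to 5.33 CPM (BRM014 6 h), 6.96 to 8.06 CPM (DMSO 6 h), 2.25 to 2.35 CPM (BRM014 30 h) and 3.81 to 6.20 CPM (DMSO 30 h). The 5 endothelial markers summed to 0.0426 to 0.257 CPM and the 5 adipocyte markers to 0 to 0.298 CPM over the libraries. Lum, Adgre1, Emcn and Lep were at 0 in every library, and Cd68 made up most of the immune sum. The part of these differences in the results was not tested.

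The summed RNA of the mitochondrial ribosomal protein genes was nearly level across the 4 groups. The 48 large subunit genes summed to 3901 and 3948 CPM with BRM014 at 6 h, against 3816 and 3572 CPM with DMSO at 6 h. At 30 h the sums were 3773 and 3608 CPM with BRM014, against 3904 and 3623 CPM with DMSO. The 29 small subunit genes summed to 1682 and 1694 CPM with BRM014 at 6 h, against 1688 and 1580 CPM with DMSO, and to 1596 and 1549 CPM with BRM014 at 30 h, against 1703 and 1622 CPM with DMSO. The BRM014 and DMSO libraries overlapped for the small subunit at 6 h and for the large subunit at 30 h. At 6 h both large subunit sums with BRM014 were above both with DMSO, and at 30 h both small subunit sums with BRM014 were below both with DMSO. Without Mrpl45, which was left out after its values were seen, the large subunit sums at 6 h overlapped. They were then 3700 and 3713 CPM with BRM014, against 3702 and 3460 CPM with DMSO. RNA per cell was not measured, so these are shares of a library and not amounts per cell.

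The ratio of the large to the small subunit sum was higher in every BRM014 library than in every DMSO library, and most of that difference was the RNA of 1 gene. The ratio was 2.32 and 2.33 with BRM014 at 6 h, against 2.26 and 2.26 with DMSO at 6 h, and 2.36 and 2.33 with BRM014 at 30 h, against 2.29 and 2.23 with DMSO at 30 h. Without Mrpl45, an alternative chosen after its values were seen, the ratio was 2.20 and 2.19 with BRM014 at 6 h, against 2.19 and 2.19 with DMSO at 6 h. At 30 h it was then 2.23 and 2.19 with BRM014, against 2.22 and 2.16 with DMSO. Without Mrpl45 the BRM014 and DMSO libraries overlapped at both times. The mean difference in the ratio was 0.0648 at 6 h and 0.0841 at 30 h with Mrpl45, and 0.00475 and 0.0211 without it.

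**Figure D1:**
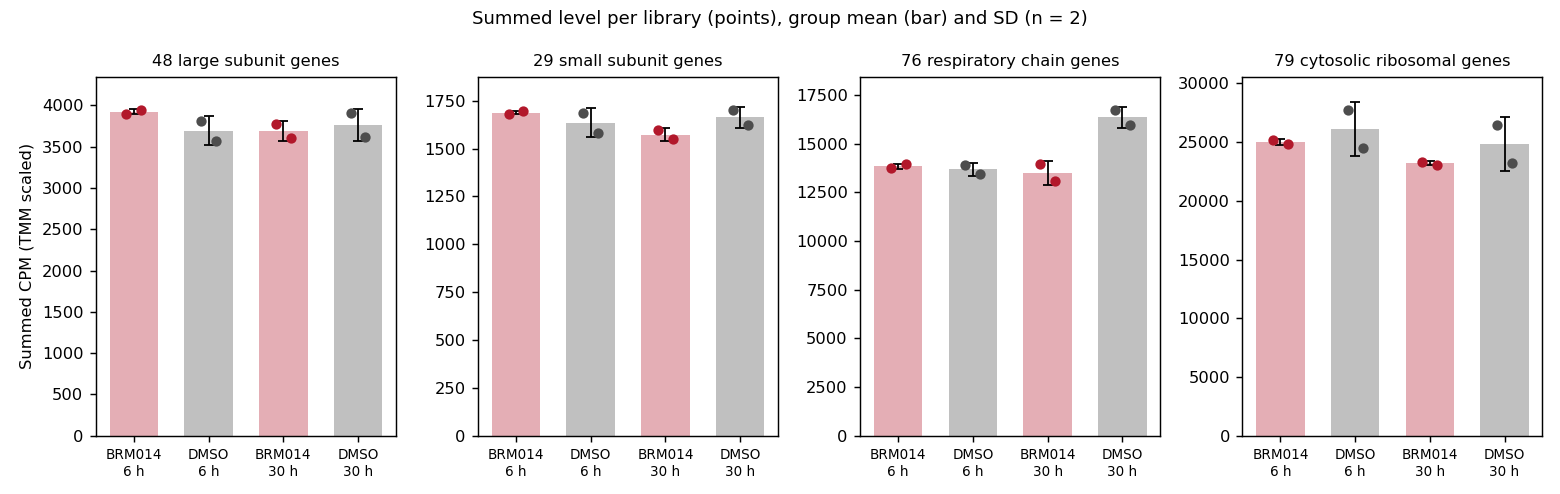
Summed CPM (vertical axes, from 0) of the 48 large subunit, 29 small subunit, 76 respiratory chain and 79 cytosolic ribosomal protein genes in the 4 groups (horizontal axes); points are libraries, bars the group mean and error bars the SD (n = 2). The sums of both mitochondrial subunits are nearly level, and the respiratory chain sum is highest in the DMSO 30 h libraries at 16749 and 15966 CPM.

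Levels between genes were compared per kilobase of the principal transcript in GENCODE M21, which is not the annotation the counts were made with. The median over large subunit genes was 51.6 CPM per kilobase (range 1.97 to 190), and over small subunit genes 36.5 (range 6.13 to 137). The highest was Mrpl33 at 190 CPM per kilobase, before Mrpl12 at 171, Mrpl42 at 162 and Mrps6 at 137. The lowest was Mrpl23 at 1.97 CPM per kilobase, with 19 to 39 counts in a library. Mrpl48 was next at 4.90 CPM per kilobase, followed by Mrps36 at 6.13.

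BRM014 against DMSO at 6 h addresses the early effect of the inhibitor. Of the 77 genes, 3 rose, 1 fell and 73 did not pass the test (edgeR quasi-likelihood test, Benjamini-Hochberg adjusted p under 0.05 over all 11835 genes). That is 5.19% of the members called, against 23.8% of all tested genes, of which 9.35% were called higher and 14.4% lower. Among the large subunit genes, 2 rose and 0 fell (4.17%), and among the small subunit genes 1 rose and 1 fell (6.90%). The median log2 fold change was 0.06 for the large and 0.04 for the small subunit, against -0.01 over all tested genes. The large and small medians were 0.165 and 0.086 without DMSO 6 h replicate 1, 0.00113 and -0.0346 without DMSO 6 h replicate 2, and 0.0536 and 0.0801 without BRM014 6 h replicate 1. The middle part of the members was narrow, with quartiles at -0.04 and 0.14, against -0.25 and 0.20 over all genes. The difference between the subunit medians, large minus small, was 0.023, and it lay between -0.0265 and 0.0785 when 1 library of this comparison was left out. For 26 members both BRM014 libraries lay above both DMSO libraries and for 15 below, against 30.8% and 34.4% of all genes. For 71 of the 77 genes the 95% interval of the change lay within 1.5-fold in either direction.

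Among the large subunit genes, Mrpl45 (Entrez 67036) had the largest change at 6 h. Its product is specific to mitochondria and helps hold the ribosome at the inner membrane, near the exit of the peptide tunnel. It had 201 and 235 CPM with BRM014 at 6 h, against 115 and 111 CPM with DMSO, so the BRM014 libraries lay far above the others. The log2 fold change was 0.95 ± 0.10 (SE, n = 2 libraries a group), a 1.93-fold higher level (adjusted p = 1.61e-05 by edgeR), and the call held under each alternative run. Mrpl36 (Entrez 94066), which encodes a small protein of bacterial type, had 63.8 and 65.5 CPM with BRM014 and 51.5 and 49.4 CPM with DMSO, with no overlap. Its log2 fold change was 0.36 ± 0.10 (adjusted p = 0.0175 by edgeR). The Mrpl36 call was lost without BRM014 6 h replicate 1 (adjusted p = 0.0753 by edgeR), BRM014 6 h replicate 2 (0.126) or DMSO 6 h replicate 2 (0.104).

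In the small subunit at 6 h, Mrps14 rose and Mrps36 fell. Mrps14 (Entrez 64659), of bacterial type, had 71.7 and 69.1 CPM with BRM014, against 49.8 and 59.9 CPM with DMSO, and the groups did not overlap. Its log2 fold change was 0.36 ± 0.11 (adjusted p = 0.0292 by edgeR). This call was lost without BRM014 6 h replicate 1 (adjusted p = 0.153 by edgeR), BRM014 6 h replicate 2 (0.110) or DMSO 6 h replicate 1 (0.183), and with scaling to the cytosolic ribosomal protein genes (0.0885), under which 2 members rose and 1 fell at 6 h. Mrps36 (Entrez 66128), the gene whose human counterpart belongs to the 2-oxoglutarate dehydrogenase complex, had 62 and 86 counts with BRM014, against 138 and 106 counts with DMSO. Those counts are 3.18 and 3.67 CPM with BRM014 and 7.01 and 5.51 CPM with DMSO, a log2 fold change of -0.87 ± 0.24 (adjusted p = 0.0176 by edgeR). It too was lost without BRM014 6 h replicate 1 (adjusted p = 0.126 by edgeR), BRM014 6 h replicate 2 (0.0736) or DMSO 6 h replicate 1 (0.162). Of the 50-base windows of Mrps36 transcripts, 17.3% also occur in other genes on the same strand, pseudogenes of Mrps36 among them, so its count is uncertain. At 30 h Mrps36 had 3.21 and 4.11 CPM with BRM014, against 3.64 and 4.03 CPM with DMSO. The DMSO 6 h libraries thus stand above all the others for this gene. Fewer members were called at 6 h without either BRM014 6 h library or without DMSO 6 h replicate 1. Fewer of all tested genes were called in those runs too. With the cytosolic scaling 16.1% of all genes were called at 6 h, against 23.8% with TMM.

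BRM014 against DMSO at 30 h had more calls, with 9 decreases of 13, a direction that did not hold when either of 2 libraries was left out. Of the 77 genes, 4 rose, 9 fell and 64 did not pass (edgeR, adjusted p under 0.05). That is 16.9% called, against 35.9% of all tested genes, of which 16.8% were called higher and 19.1% lower. In the large subunit 2 rose and 6 fell (16.7%), and in the small subunit 2 rose and 3 fell (17.2%). The median log2 fold change was -0.07 for the large and -0.06 for the small subunit, against -0.00457 over all genes. Quartiles of the members were -0.19 and 0.06, against -0.28 and 0.27 over all genes. For 14 members both BRM014 libraries lay above both DMSO libraries and for 33 below, against 32.9% and 33.9% of all genes. Large minus small was -0.0102, and between -0.0797 and 0.0395 with 1 library of this comparison left out. Without BRM014 30 h replicate 2, more of the called members rose than fell, and the medians were 0.0011 (large) and -0.019 (small). Without DMSO 30 h replicate 1 more of them also rose than fell, and the medians were 0.00455 and -0.035. Fewer members and fewer of all tested genes were called in both runs. Without DMSO 30 h replicate 2 the large subunit median was -0.152, and without BRM014 30 h replicate 1 it was -0.117. With libraries scaled to the cytosolic ribosomal protein genes in place of TMM, 5 members rose and 0 fell, and the median was 0.03 for the members and 0.08 for all genes.

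**Figure D2:**
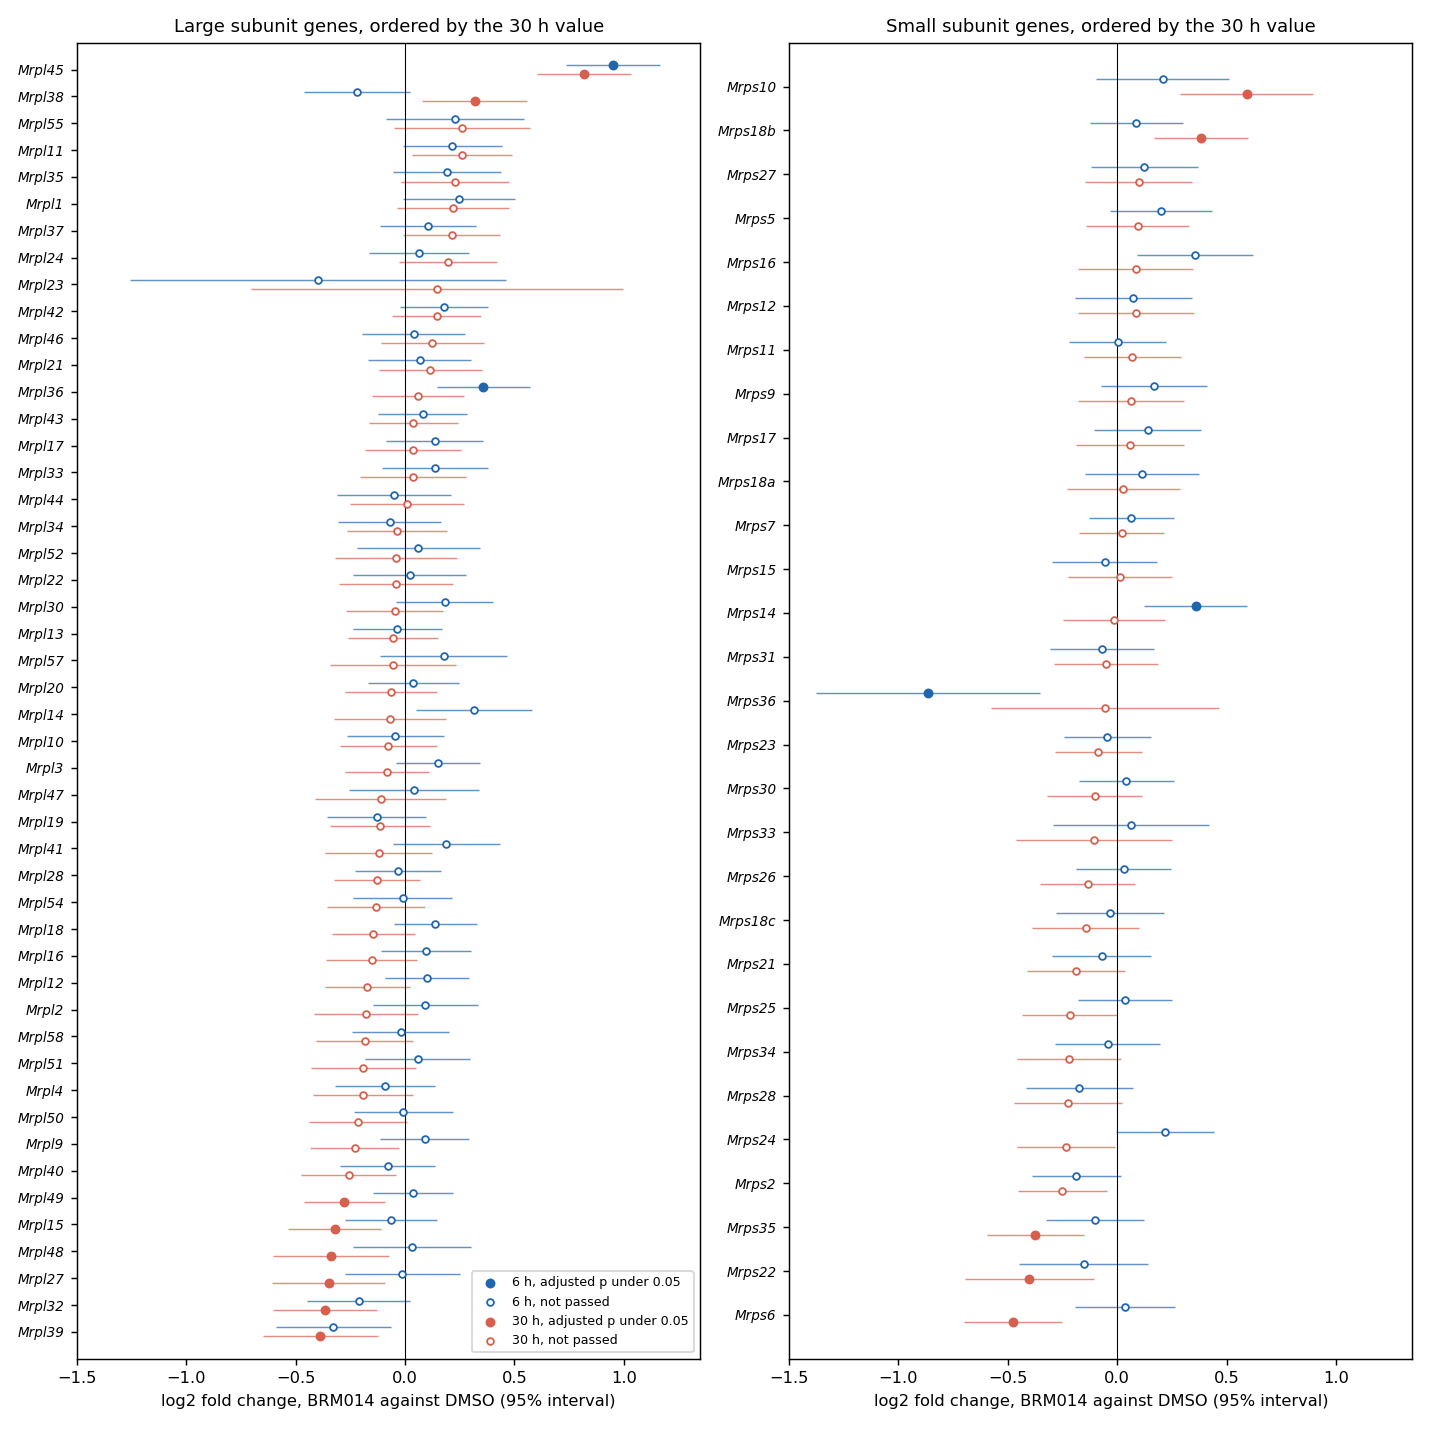
Log2 fold change of BRM014 over DMSO with its 95% interval (horizontal axes) for each of the 77 genes, large subunit left and small subunit right, in blue at 6 h and in red at 30 h; filled points passed the test and open points did not. Genes are ordered by the 30 h value, most intervals cross 0, and Mrpl45 stands apart at 0.95 (6 h) and 0.82 (30 h).

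In the large subunit at 30 h, Mrpl45 and Mrpl38 rose. Mrpl45 had 211 and 216 CPM with BRM014, against 126 and 116 CPM with DMSO, again far apart. The log2 fold change was 0.82 ± 0.10 (1.76-fold, adjusted p = 2.95e-05 by edgeR) and was called under each alternative run. Mrpl38 (Entrez 60441), a mitochondria-specific protein of the central protuberance, had 132 and 142 CPM with BRM014 and 116 and 103 CPM with DMSO, with no overlap. Its log2 fold change was 0.32 ± 0.11 (adjusted p = 0.0403 by edgeR), whereas at 6 h it was -0.22 ± 0.11 (adjusted p = 0.182 by edgeR). The Mrpl38 call at 30 h was lost without 5 of the 8 libraries, each BRM014 library of either time (adjusted p = 0.0551 and 0.0556 for the 6 h libraries, 0.0604 and 0.189 for the 30 h ones, edgeR) and DMSO 30 h replicate 2 (0.204).

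The 4 lowest large subunit genes at 30 h were Mrpl39, Mrpl32, Mrpl27 and Mrpl48. Mrpl39, a mitochondria-specific protein, had 74.2 and 60.9 CPM with BRM014 at 30 h, against 91.8 and 84.5 CPM with DMSO, a log2 fold change of -0.39 ± 0.12 (adjusted p = 0.0239 by edgeR). Mrpl32, a bacterial-type protein that in yeast and mouse is processed by the m-AAA protease before it joins the ribosome, had 51.8 and 44.5 CPM with BRM014, against 63.6 and 60.2 CPM with DMSO (-0.37 ± 0.11, adjusted p = 0.0194 by edgeR). Both groups were apart for these genes, and both calls were lost without BRM014 30 h replicate 2 (adjusted p = 0.228 for Mrpl39 and 0.175 for Mrpl32, edgeR) or DMSO 30 h replicate 1 (0.107 and 0.0850).

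Mrpl27, of bacterial type, had 35.2 and 29.1 CPM with BRM014 at 30 h, against 43.2 and 38.5 CPM with DMSO (-0.35 ± 0.12, adjusted p = 0.0373 by edgeR), and 22.3% of its transcript windows also occur in other genes of the same strand. Its call was lost without BRM014 6 h replicate 1 (adjusted p = 0.0613 by edgeR) or replicate 2 (0.0605), DMSO 6 h replicate 2 (0.0518), BRM014 30 h replicate 2 (0.290) or DMSO 30 h replicate 1 (0.191). Mrpl48, mitochondria-specific, had 19.05 and 19.13 CPM with BRM014, against 24.0 and 24.3 CPM with DMSO (-0.34 ± 0.12, adjusted p = 0.0467 by edgeR). The Mrpl48 call was lost in 14 of 17 alternatives, among them leaving out any single one of the 8 libraries. The others were RLE scaling factors, library totals, the cytosolic scaling, no filter on low counts, DESeq2 and only the 4 libraries of the comparison. Neither gene's groups overlapped. The Mrpl27 call was also lost with library totals, the cytosolic scaling and only the 4 libraries of the comparison.

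In the small subunit at 30 h, Mrps10 and Mrps18b rose. Mrps10 (Entrez 64657), a bacterial-type protein, had 44.8 and 50.2 CPM with BRM014, against 36.3 and 27.1 CPM with DMSO. The groups did not overlap, and the DMSO libraries differed from each other by about as much as from the nearer BRM014 library. The log2 fold change was 0.59 ± 0.14 (adjusted p = 0.00519 by edgeR), and it was 0.39 without DMSO 30 h replicate 2 (adjusted p = 0.0523 by edgeR).

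Mrps18b (Entrez 66973) is 1 of 3 paralogs of the bacterial S18 protein, each of which takes a different place in the mammalian ribosome. It had 58.9 and 56.2 CPM with BRM014 at 30 h, against 41.9 and 46.2 CPM with DMSO, a log2 fold change of 0.38 ± 0.10 (adjusted p = 0.00868 by edgeR). Without DMSO 30 h replicate 1 the adjusted p was 0.0574 by edgeR. Of its windows, 14.6% also occur in Gm13552 on the same strand and 25.1% in Gm16279 on the opposite strand, so part of its count may be shared. The other paralogs did not pass at either time: Mrps18a changed by 0.11 ± 0.12 at 6 h and 0.03 ± 0.12 at 30 h (adjusted p = 0.548 and 0.883 by edgeR), and Mrps18c by -0.03 ± 0.11 and -0.14 ± 0.11 (adjusted p = 0.871 and 0.351 by edgeR).

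Mrps6, Mrps22 and Mrps35 fell at 30 h. Mrps6 (Entrez 121022), of bacterial type, had 104 and 116 CPM with BRM014 at 30 h, against 141 and 166 CPM with DMSO at 30 h, and it had 96.0 and 105 CPM with BRM014 at 6 h, against 97.1 and 99.3 CPM with DMSO at 6 h. The DMSO 30 h libraries stand above the 6 others. The log2 fold change was -0.48 ± 0.10 at 30 h (adjusted p = 0.00322 by edgeR) and 0.04 ± 0.11 at 6 h (adjusted p = 0.845 by edgeR). The 30 h call was lost with scaling to the cytosolic ribosomal protein genes (-0.39, adjusted p = 0.0761 by edgeR). Slc5a3, which shares 17.3% of the Mrps6 windows on the same strand, had 63.5 and 122 CPM with BRM014 at 30 h, against 71.1 and 122 CPM with DMSO (log2 fold change -0.05 ± 0.29, adjusted p = 0.902 by edgeR).

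Mrps22, a mitochondria-specific protein, had 42.1 and 31.6 CPM with BRM014 at 30 h, against 50.7 and 46.2 CPM with DMSO, a log2 fold change of -0.40 ± 0.14 (adjusted p = 0.0354 by edgeR). Its groups were apart, but the call rested on several libraries and was lost without BRM014 30 h replicate 2 (adjusted p = 0.336 by edgeR), DMSO 30 h replicate 1 (0.143) or DMSO 6 h replicate 2 (0.0507). Without BRM014 30 h replicate 2 the log2 fold change of Mrps22 was -0.20. The Mrps22 call was also lost with library totals, the cytosolic scaling and only the 4 libraries of the comparison. Mrps35, also mitochondria-specific, had 39.2 and 39.2 CPM with BRM014, against 51.3 and 50.4 CPM with DMSO (-0.37 ± 0.10, adjusted p = 0.0118 by edgeR). Its replicates were close, and the adjusted p without BRM014 30 h replicate 2 was 0.0579 by edgeR.

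**Figure D3:**
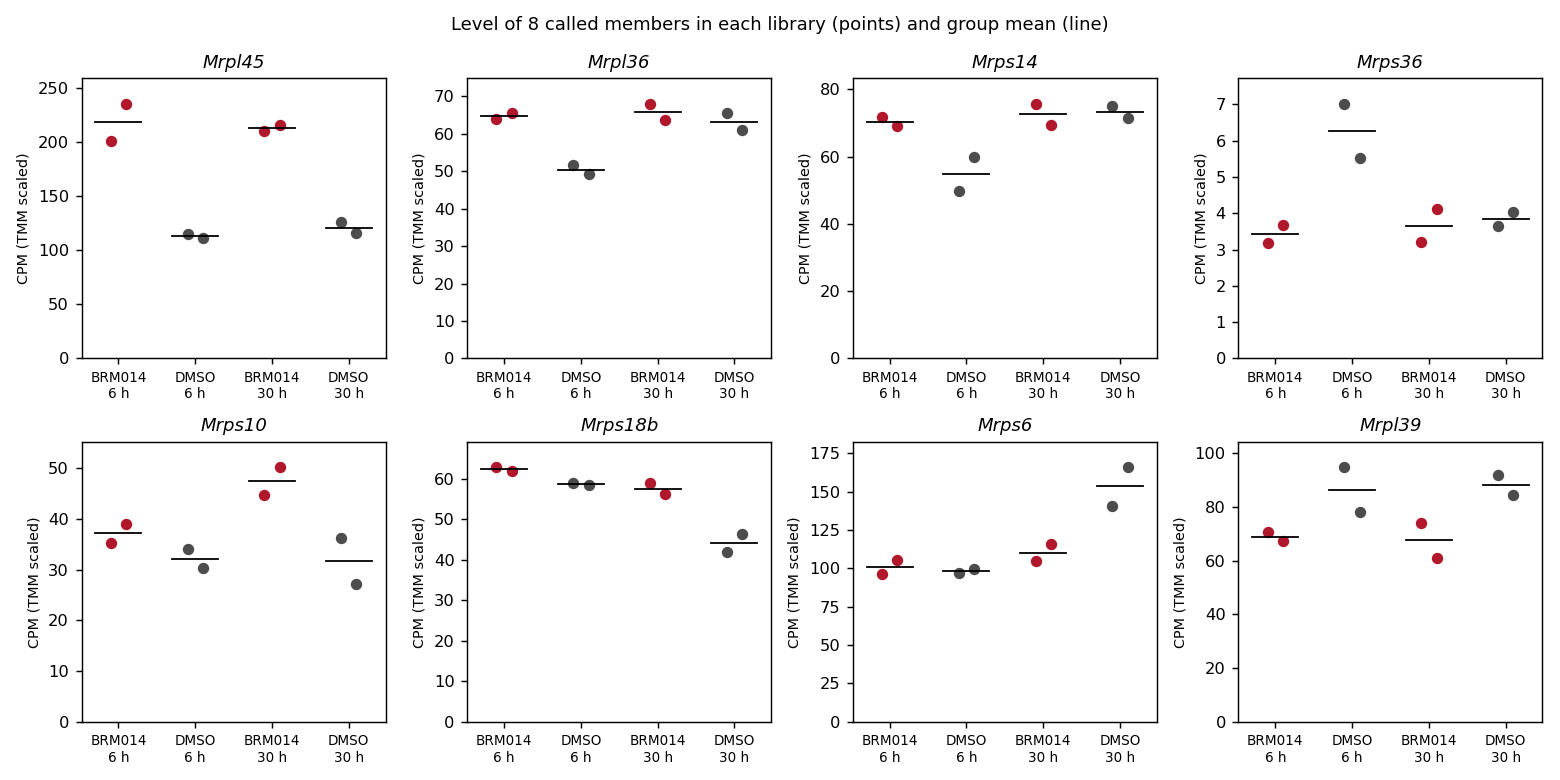
CPM (vertical axes, from 0) of 8 genes that passed a test with BRM014, by group (horizontal axes); points are the 2 libraries of a group, red for BRM014 and grey for DMSO, and lines are group means. Mrpl45 is at 201 to 235 CPM in BRM014 libraries and 111 to 126 CPM in DMSO libraries, and Mrps6 is highest in the DMSO 30 h libraries at 141 and 166 CPM.

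Some members were described whatever their values, and of these Mrps12, Mrpl11, Mrpl12 and Mrps30 did not pass at either time. Mrps12, whose product lies at the decoding centre, had 40.8 and 43.6 CPM with BRM014 at 6 h, against 43.1 and 37.1 CPM with DMSO, and its log2 fold changes were 0.07 ± 0.12 at 6 h and 0.08 ± 0.12 at 30 h (adjusted p = 0.722 and 0.631 by edgeR). Mrpl11, at the base of the stalk that binds translation factors, changed by 0.22 ± 0.11 at 6 h and 0.26 ± 0.11 at 30 h (adjusted p = 0.160 and 0.0696 by edgeR). Mrpl11 passed at 30 h with library totals, with the cytosolic scaling, with a replicate block and without DMSO 30 h replicate 1 (adjusted p = 0.0432, 0.0399, 0.0310 and 0.0484 by edgeR). Mrpl12, of the stalk itself, changed by 0.10 ± 0.09 and -0.17 ± 0.09 (adjusted p = 0.459 and 0.154 by edgeR). Mrps30 changed by 0.04 ± 0.10 and -0.10 ± 0.10 (adjusted p = 0.811 and 0.457 by edgeR), and Mrps36 at 30 h by -0.06 ± 0.24 (adjusted p = 0.883 by edgeR), a gene too low for a narrower value.

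The genes were also grouped by the origin of the proteins and by their place in the structure. In BRM014 against DMSO at 30 h, of 30 bacterial-type large subunit genes, 0 rose and 3 fell (median log2 fold change -0.07), and of 18 mitochondria-specific ones 2 rose and 3 fell (median -0.09). Of 17 bacterial-type small subunit genes 1 rose and 1 fell (11.8%, median 0.02). Of 11 mitochondria-specific ones 1 rose and 2 fell (27.3%, median -0.11), against 35.9% of all genes called. The S18 paralogs cannot be placed in 1 class, so the split of the small subunit is uncertain. Mrps18b was counted here as mitochondria-specific. With Mrps18a and Mrps30 counted in the large subunit and Mrps36 left out, large minus small was 0.023 at 6 h and 0.00223 at 30 h.

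No library is shared between the comparisons at 6 h and at 30 h. Across the 77 genes their log2 fold changes had Pearson's r = 0.482 and Spearman's rho = 0.501, and r = 0.326 and rho = 0.481 without Mrpl45. Genes are not independent replicates, so this is a description. The change was positive at both times for 25 genes and negative at both for 24, and Mrpl45 was the one gene called at both. None of these values was worked out over all tested genes, so whether the members differ from them here was not tested. In the test of the difference of effects, 30 h minus 6 h, 0 of 77 passed by edgeR, against 6.47% of all tested genes (3.89% higher and 2.59% lower). At an unadjusted p under 0.05 there were 11, against 2368 of all 11835 genes. DESeq2 called 2, against 7.91% of all genes, and limma-voom 0, against 6.34%. The smallest p-values were those of Mrps6 (-0.51 ± 0.15, adjusted p = 0.0595 by edgeR) and Mrpl38 (0.54 ± 0.16, adjusted p = 0.0628 by edgeR). The median difference was -0.10 in either subunit, against 0.01 over all genes.

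Time in culture was compared within each treatment. In DMSO, 30 h against 6 h, 6 members rose, 2 fell and 69 did not pass (10.4% called by edgeR, against 35.2% of all tested genes, 18% higher and 17.2% lower). All 4 large subunit calls were increases, and the small subunit had 2 increases and 2 decreases. The medians were 0.04 for the large and -0.07 for the small subunit, against 0.01 over all genes. For 21 members both 30 h libraries lay above both 6 h libraries and for 18 below, against 34.8% and 32.9% of all genes. The small subunit median was 0.02 with library totals and 0.01 with scaling to the cytosolic ribosomal protein genes, where all genes had 0.10 and 0.08. Both signs also depended on single libraries. The large median was -0.0563 without DMSO 6 h replicate 2, -0.037 without DMSO 30 h replicate 1, 0.113 without DMSO 6 h replicate 1 and 0.138 without DMSO 30 h replicate 2. The small median was 0.0503 without DMSO 6 h replicate 1 and 0.0261 without DMSO 30 h replicate 2, and -0.116 and -0.134 without DMSO 6 h replicate 2 or DMSO 30 h replicate 1. Fewer members, and fewer of all tested genes, were called without DMSO 6 h replicate 1 or DMSO 30 h replicate 1. With the cytosolic scaling 5 members rose and 0 fell, and 23.8% of all genes were called.

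Mrps6 and Mrpl14 led these calls, and both held under each alternative run. The time comparison in DMSO shares its libraries with the comparisons of BRM014 against DMSO. The calls of Mrps6, Mrps14 and Mrps18b in both kinds of comparison are therefore not independent. Mrps6, whose values are given above, changed by 0.64 ± 0.11 (adjusted p = 0.000611 by edgeR), and its neighbour Slc5a3 by 0.99 ± 0.29 (adjusted p = 0.0192 by edgeR). Mrpl14, of bacterial type, had 57.6 and 46.7 CPM with DMSO at 30 h, against 31.5 and 34.8 CPM with DMSO at 6 h (0.65 ± 0.12, adjusted p = 0.00145 by edgeR). The groups were apart for both, and 6.2% of the Mrpl14 windows lie in Tmem63b on the opposite strand. Mrps14 had 75.2 and 71.4 CPM with DMSO at 30 h, against 49.8 and 59.9 CPM at 6 h (0.42 ± 0.11, adjusted p = 0.0102 by edgeR). Mrps18b had 41.9 and 46.2 CPM at 30 h, against 59.0 and 58.4 CPM at 6 h (-0.41 ± 0.10, adjusted p = 0.00655 by edgeR). Without DMSO 6 h replicate 1 the adjusted p was 0.0969 for Mrps14 and 0.0504 for Mrps18b (edgeR), and the Mrps18b call was also lost with the cytosolic scaling (0.102).

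In BRM014, 30 h against 6 h, 3 members rose, 8 fell and 66 did not pass (14.3% called by edgeR, against 36.5% of all tested genes, 19.6% higher and 16.9% lower). The large subunit had 3 increases and 6 decreases, and the small subunit 0 and 2. The medians were -0.06 for the large and -0.12 for the small subunit, against 0.01 over all genes. They were -0.0317 and -0.0786 without BRM014 30 h replicate 2, and the large median was -0.104 without BRM014 30 h replicate 1. For 10 members both 30 h libraries lay above both 6 h libraries and for 38 below, against 36.8% and 34.9% of all genes. The 4 with the smallest p were all large subunit genes that fell. Mrpl49 had 138 and 143 CPM with BRM014 at 30 h, against 193 and 190 CPM with BRM014 at 6 h (-0.44 ± 0.09, adjusted p = 0.00164 by edgeR). Mrpl9, of bacterial type, had 84.4 and 81.2 CPM at 30 h, against 114 and 112 CPM at 6 h (-0.45 ± 0.09, adjusted p = 0.00252 by edgeR). Each was clearly apart between the times.

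Mrpl12, the stalk gene, had 184 and 203 CPM with BRM014 at 30 h, against 253 and 255 CPM with BRM014 at 6 h (-0.39 ± 0.09, adjusted p = 0.00423 by edgeR). Mrpl3, of bacterial type, had 82.8 and 78.5 CPM at 30 h, against 105 and 103 CPM at 6 h (-0.37 ± 0.09, adjusted p = 0.00603 by edgeR, and 0.0601 without BRM014 6 h replicate 1). Neither overlapped between the times, and 7.1% of the Mrpl12 windows lie in Gm16755 on the opposite strand. With scaling to the cytosolic ribosomal protein genes these 4 calls were lost (adjusted p = 0.0522 to 0.151 by edgeR), 4 members rose and 0 fell, and the medians were 0.05 for the large and -0.01 for the small subunit and 0.12 over all genes. Fewer members, and fewer of all tested genes, were called without BRM014 6 h replicate 1, BRM014 6 h replicate 2 or BRM014 30 h replicate 2.

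**Figure D4:**
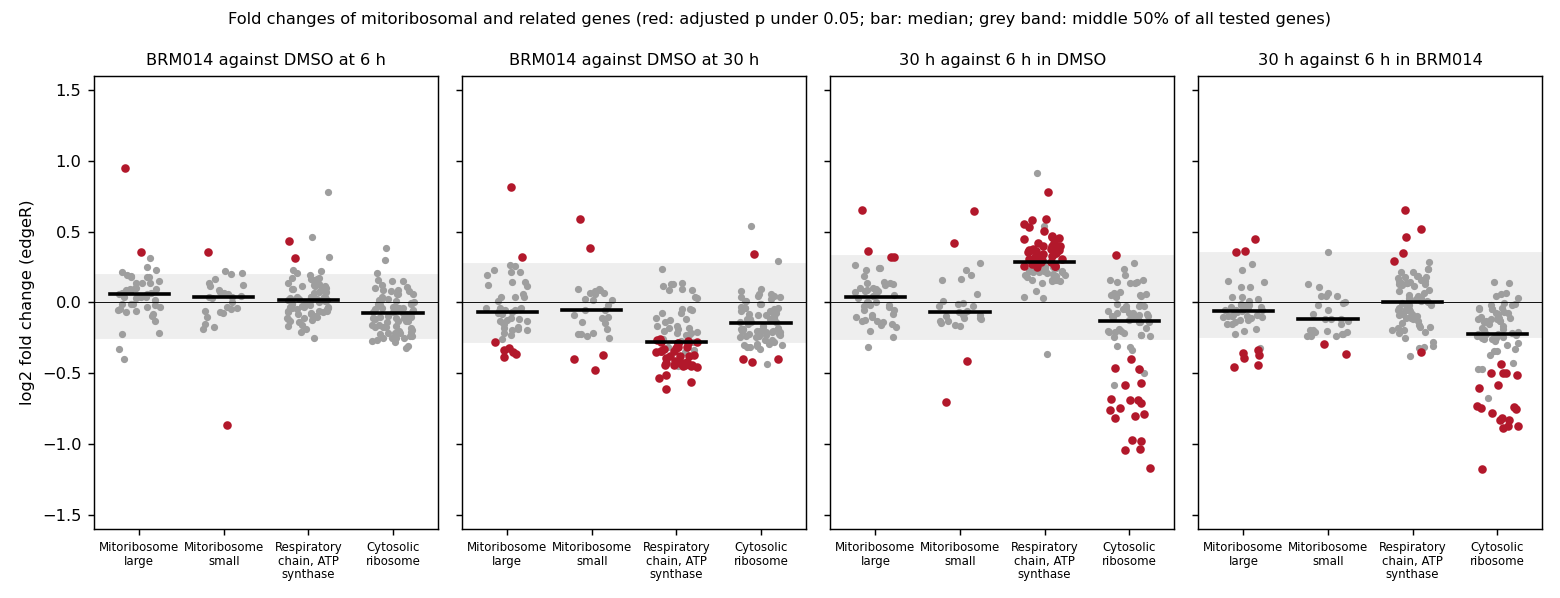
Log2 fold changes of the genes of the large and small mitochondrial ribosomal subunits, the respiratory chain and the cytosolic ribosomal proteins, as points (red where the gene passed the test) with a bar at the median of each list, in the BRM014 against DMSO comparisons and the time comparisons; the grey band spans the quartiles of all tested genes. The medians of both mitochondrial subunits stay between -0.12 and 0.06, and that of the respiratory chain is -0.28 at 30 h.

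Other genes of mitochondrial gene expression, taken from lists of known roles, had lower shares of calls than all genes with BRM014 against DMSO, where 23.8% (6 h) and 35.9% (30 h) of all genes were called. Of 5 ribosomal proteins of mitochondria with other names (Dap3, Chchd1, Aurkaip1, Ptcd3 and Gadd45gip1), 0 passed at either time with BRM014 by edgeR. At an unadjusted p under 0.05 there were 0 at 6 h and 1 at 30 h. Of all 11835 genes, 4152 (6 h) and 5368 (30 h) had an unadjusted p under 0.05. Of 27 genes of ribosome assembly and ribosomal RNA modification, 2 rose and 1 fell at 6 h, and 1 rose and 2 fell at 30 h (11.1% at either time). Mtg1, an assembly GTPase of the large subunit, changed by 0.62 ± 0.13 at 30 h (adjusted p = 0.00206 by edgeR), and Noa1, a GTPase needed for the small subunit, by -0.50 ± 0.10 (adjusted p = 0.00172 by edgeR). Of 14 translation factors, 0 passed at 6 h by edgeR (2 at an unadjusted p under 0.05), and 1 rose and 2 fell at 30 h (21.4%). Those that fell were the elongation factor genes Gfm1 (-0.27 ± 0.09, adjusted p = 0.0287 by edgeR) and Guf1 (-0.34 ± 0.12, adjusted p = 0.0393 by edgeR). The Gfm1 call was lost in 8 of 17 alternatives (adjusted p up to 0.288 by edgeR), among them leaving out either BRM014 library of either time or either DMSO 30 h library. The Guf1 call was lost in 9 of 17 (up to 0.292), among them DESeq2 and leaving out any BRM014 library or DMSO 30 h replicate 2. Without DMSO 30 h replicate 2 Guf1 changed by -0.21.

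Of 22 genes of aminoacyl-tRNA synthesis, 1 rose and 0 fell at 6 h (4.55%), and 3 rose and 2 fell at 30 h (22.7%), with Gars at 0.41 ± 0.09 (adjusted p = 0.00423 by edgeR) and Gatc at -0.53 ± 0.11 (adjusted p = 0.00304 by edgeR). Of 18 genes of mitochondrial DNA and transcription, 1 rose and 2 fell at either time (16.7%), among them Top1mt (0.89 ± 0.14 at 30 h) and Polg, the replicative polymerase (-0.89 ± 0.09 at 30 h, adjusted p = 7.88e-06 by edgeR). Of 27 import genes, 3 rose and 1 fell at 6 h (14.8%), and 2 rose and 0 fell at 30 h (7.41%), namely Timm8a1 (0.38 ± 0.14) and Timm10 (0.34 ± 0.11), chaperones of the intermembrane space. The Timm8a1 call was lost in 8 of 17 alternatives (adjusted p up to 0.271), among them DESeq2, the cytosolic scaling and leaving out any of 5 libraries (either BRM014 6 h library, BRM014 30 h replicate 2, either DMSO 30 h library). The Timm10 call was lost in 5 of 17 (up to 0.0848), among them leaving out any 30 h library. For 30 h against 6 h, of the 18 genes of mitochondrial DNA and transcription, 2 rose and 7 fell in DMSO (50%, against 35.2% of all genes), and 1 rose and 9 fell in BRM014 (55.6%, against 36.5%). Of the 27 import genes, 2 rose and 6 fell in DMSO (29.6%) and 1 rose and 8 fell in BRM014 (33.3%). The other lists had 7.14% to 29.6% called in DMSO and 21.4% to 40% in BRM014, with 1 of 5 and 2 of 5 for the ribosomal proteins with other names.

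The nuclear genes of the respiratory chain, whose partner subunits the mitochondrial ribosome makes, had many calls at 30 h, in 1 direction. Of 76, 2 rose and 0 fell at 6 h (2.63%, against 23.8% of all genes). At 30 h, 0 rose and 38 fell (50%, against 35.9% of all genes), with a median log2 fold change of -0.28. In the test of the difference of effects, 30 h minus 6 h, 0 were called higher and 3 lower by edgeR. That is 3.95%, against 6.47% of all genes, and the median difference was -0.30. In DMSO, 43 of the 76 rose between the times and 0 fell (56.6%, against 35.2% of all genes), with a median of 0.28, and in BRM014 5 rose and 1 fell (7.89%, against 36.5%). Their summed level was 13764 and 13947 CPM with BRM014 at 6 h, against 13909 and 13450 CPM with DMSO at 6 h, which overlapped, and 13940 and 13071 CPM with BRM014 at 30 h, against 16749 and 15966 CPM with DMSO at 30 h, which did not. The 30 h comparison and the time comparison in DMSO share the DMSO 30 h libraries, so their values are set side by side only. The 38 decreases became 13 without BRM014 30 h replicate 2, 19 without DMSO 30 h replicate 1 and 8 (with 1 increase) under scaling to the cytosolic ribosomal protein genes. The 43 increases became 21 without DMSO 6 h replicate 1, 14 without DMSO 6 h replicate 2 and 14 without DMSO 30 h replicate 1. Fewer of all tested genes were called in each of these runs too (27.8% at 30 h with the cytosolic scaling). As shares of the 76 genes, these decreases and increases were under the share of all genes called. The exception was the increases without DMSO 6 h replicate 1. No test of the lists against each other was made.

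The cytosolic ribosomal protein genes had 0 calls of 78 tested at 6 h by edgeR. At an unadjusted p under 0.05 there were 5, against 4152 of all 11835 genes. At 30 h 1 rose and 3 fell, Rpl39 (-0.40 ± 0.13) among those that fell. The Rpl39 call was lost without BRM014 30 h replicate 2 (-0.26, adjusted p = 0.247 by edgeR) or DMSO 30 h replicate 1 (0.113), with library totals (0.0560) and when scaled to its own list (0.209). Of the 78, 0% were called at 6 h, against 23.8% of all genes, and 5.13% at 30 h, against 35.9%. Their median log2 fold change was -0.07 at 6 h and -0.15 at 30 h. Between the times, 1 rose and 19 fell in DMSO (median -0.13), and 0 rose and 19 fell in BRM014 (median -0.22). That is 25.6% called in DMSO, against 35.2% of all genes, and 24.4% in BRM014, against 36.5%. The cytosolic ribosomal protein genes summed to 23332 and 23083 CPM with BRM014 at 30 h, against 26441 and 23189 CPM with DMSO at 30 h. The scaling to these genes used above therefore moves every other gene up where they fell.

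Among 13 transcriptional regulators of mitochondrial biogenesis, the genes Nrf1, Gabpa and Yy1, whose products bind the NRF1, ETS and YY1 motifs, did not pass, whereas Myc and Max, whose products bind the E-box, rose at 30 h. Of the 13, 23.1% were called at either time, against 23.8% (6 h) and 35.9% (30 h) of all genes. Nrf1 changed by -0.04 ± 0.10 at 6 h and -0.25 ± 0.10 at 30 h (adjusted p = 0.814 and 0.0593 by edgeR). Gabpa changed by -0.29 ± 0.11 and -0.25 ± 0.11 (adjusted p = 0.0790 and 0.0953 by edgeR). Without DMSO 30 h replicate 1 Gabpa passed at both times (adjusted p = 0.0315 and 0.0146 by edgeR), and at 6 h it also passed with only the 4 libraries of that comparison (0.0242) and with a replicate block (0.0414). Yy1 changed by 0.04 ± 0.09 and 0.02 ± 0.09 (adjusted p = 0.816 and 0.869 by edgeR). Ppargc1a, a coactivator of mitochondrial biogenesis, had 3.28 and 4.39 CPM with BRM014 at 6 h, against 9.05 and 11.3 CPM with DMSO, and 6.15 and 6.03 CPM with BRM014 at 30 h, against 11.3 and 24.2 CPM with DMSO. It fell at both times, by 1.39 ± 0.31 (adjusted p = 0.00559 by edgeR) and 1.55 ± 0.29 (adjusted p = 0.00105 by edgeR) on the log2 scale. The 6 h call was lost without BRM014 6 h replicate 1 (-1.21, adjusted p = 0.0596 by edgeR), and the 30 h value lay between -1.98 and -0.89 over the alternatives and was called in each. Myc had 228 and 215 CPM with BRM014 at 30 h, against 159 and 124 CPM with DMSO (0.65 ± 0.17, adjusted p = 0.00843 by edgeR), and at 6 h it changed by -0.04 ± 0.16 (adjusted p = 0.902 by edgeR). The 30 h call of Myc was lost without BRM014 30 h replicate 1 (adjusted p = 0.0509 by edgeR) or DMSO 30 h replicate 2 (0.0653). Max, the partner of Myc, changed by 0.51 ± 0.11 at 30 h (adjusted p = 0.00285 by edgeR).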

How the data were processed

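The deposited values are the authors' raw read counts, 1 row a gene, named by Entrez ID and symbol. Per the labels, total RNA was made into stranded libraries and sequenced as single reads. The submitters' processing notes name mm9, Subread, SAMtools 0.1.19 and featureCounts. Which annotation and strand setting were used is not given in the sources used here. Antisense and overlapping genes may therefore share reads.

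The 8 libraries were fitted together with edgeR 4.0.16 in R 4.3.3 (filterByExpr, TMM factors 0.935 to 1.05, quasi-likelihood test on the means of 4 groups, 4 residual degrees of freedom, biological coefficient of variation 9.3%). Tests were 2-sided and adjusted by Benjamini-Hochberg over all genes tested. A standard error is the size of the log2 fold change divided by the square root of F. Replicates differed beyond counting noise (chi-square per gene 6.72 to 17.9). The procedure was tested on simulated counts. Alternatives used other scaling factors, filters, libraries, a replicate block, limma-voom 3.58.1 and DESeq2 1.42.0.

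Members and lists were chosen with earlier results of these data known. Named genes are, per subunit and treatment comparison, the 4 highest and 4 lowest called with libraries that do not overlap; per time comparison, the 4 with the smallest p; 8 members whatever their values; and, per list, the 2 called with the smallest p at 30 h, with 5 regulators. A gene that this rule names is not reported here. Genes named for the highest or lowest level per kilobase, for the difference of effects, or as neighbours of a member were named after their values were seen. Transcript windows came from GENCODE M21 on GRCm38, and promoters from RefSeq.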

Additional observations from a re-analysis of the deposited data

How the results depend on the processing

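Of 23 called results of named members followed over the alternatives, 4 stayed called under each (Mrpl45 at 6 h and at 30 h, Mrps6 and Mrpl14 for time in DMSO), 19 were lost under at least 1 and 0 reversed. With library totals as scaling, 7 members were called at 6 h, 1 for the difference of effects, and 13 for time in DMSO. Of all genes 26%, 6.6% and 35.3% were then called, against 23.8%, 6.47% and 35.2% with TMM. Scaling to cytosolic ribosomal protein genes gave 5 at 30 h, 5 for time in DMSO and 4 for time in BRM014. It called 27.8%, 23.8% and 26.2% of all genes, against 35.9%, 35.2% and 36.5% with TMM. The median of all genes was then 0.118 for time in BRM014, against 0.00925 with TMM. Of all called genes, 45.1% were lower at 6 h with library totals, against 60.7% with TMM. With the cytosolic scaling the share lower was 41.9% at 30 h, against 53.2% with TMM, and 25% against 46.3% for time in BRM014. For time in DMSO it was 34.1% with library totals and 33.2% with the cytosolic scaling, against 48.8% with TMM. Without the low-count filter there were 7 members called at 6 h (21% of all genes) and 2 for the difference (8.36%). For the difference, a stricter filter gave 1 (6.98% of all genes) and DESeq2 gave 2 (7.91%). With only the 4 libraries of the comparison there were 7 at 6 h (30.1% of all genes) and 8 at 30 h (30.8%).

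Leaving out 1 library gave 1 to 6 members called at 6 h, 4 to 12 at 30 h, 0 to 2 for the difference of effects, 2 to 8 for time in DMSO and 5 to 12 for time in BRM014. Large minus small was then -0.0265 to 0.0785 at 6 h and -0.0797 to 0.0395 at 30 h. The cause was not tested. A replicate block gave 6, 16, 2, 9 and 13 member calls in the same order, and called 28.3%, 41.2%, 10.5%, 41% and 41.4% of all genes. The share of all genes called also moved when 1 library was left out, and in each of these runs and comparisons it stayed above the share of members called. With 2 pairs a comparison the numbers are not taken to pair the libraries: the replicate differences correlated by 0.122 to 0.201 within comparisons.

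Log2 fold changes that changed sign were of results that had not passed. With 1 library left out, those at 6 h ranged over -0.0346 to 0.218 for Mrps12, -0.05131 to 0.3261 for Mrps18a, -0.1003 to 0.06563 for Mrps18c, -0.01851 to 0.1333 for Mrps30, -0.3148 to 0.3325 for Myc and -0.07638 to 0.02651 for Nrf1. At 30 h they ranged over -0.05157 to 0.234 for Mrps12, -0.05066 to 0.1084 for Mrps18a, -0.2525 to 0.09928 for Mrps36 and -0.02718 to 0.0834 for Yy1. Library totals gave 0.05171 for Mrps18c, 0.05073 for Myc and 0.04489 for Nrf1, and the cytosolic scaling 0.02663, 0.0363 and 0.01839. For Mrps36 at 30 h it gave 0.02886.

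Depth limits Mrpl23 (19 to 39 counts) and Mrps36. For 30 h, 66 of 77 members had a 95% interval within 1.5-fold, so smaller changes may have been missed.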
